A study of Mus musculus with 14 samples.

Results

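The genes described here are the mouse genes of the Hist1, Hist2, Hist3 and Hist4 clusters, which encode the histones that package newly made DNA. They were taken as the rows of the expression table whose Ensembl identifier, without its version, belongs to a protein-coding gene of GENCODE release M21 (GRCm38) with a symbol beginning Hist1h, Hist2h, Hist3h or Hist4h. 65 of the 49585 rows met this rule, of 67 such genes in the release, and Hist1h2bm and Hist1h2bh had no row under these identifiers. By family they were 6 linker histone genes (H1), 18 H2A, 16 H2B, 12 H3 and 13 H4 genes. 52 lie in the Hist1 cluster on chromosome 13, 10 in the Hist2 cluster on chromosome 3, 2 in the Hist3 cluster on chromosome 11 and 1, Hist4h4, on chromosome 6.

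The cells were C2C12, an established line of mouse myoblasts that divide in serum and can fuse into muscle fibres. 4 libraries came from activated cells with a short hairpin RNA against Foxm1 (shFoxM1), 3 from activated cells with a control hairpin (shControl), 4 from quiescent shFoxM1 cells and 3 from quiescent shControl cells. All groups are this 1 line with 1 hairpin or the other; the sequence and number of hairpins are not stated, and neither is the way in which cells were activated or for how long. Quiescent cells had been trypsinized and held in suspension in semi-solid methylcellulose medium, a way to make adherent cells leave the cell cycle.

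Core histones H2A, H2B, H3 and H4 form the nucleosome, and the linker histone H1 binds where DNA enters and leaves it. Most genes of these clusters have no introns and are transcribed mainly in S phase, when DNA is copied. Their mRNAs typically end in a short stem-loop in place of a poly(A) tail; the stem-loop is bound by the protein Slbp, and the mRNAs are degraded when DNA synthesis stops. FoxM1 is a forkhead transcription factor of dividing cells that is best known for driving genes of the G2 and M phases.

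The 3′ stem-loop is shown first because it is the feature that sets these mRNAs apart. GENCODE M21 transcripts were searched on the sense strand for a 6-base stem with no mismatch that begins with GG, a 4-base loop that begins with TT, and the complementary strand of the stem. 42 of the 65 genes held such an element, against 86 of 21799 other protein-coding genes (0.395%). Each of the 6 forms found is shown once or more, with the 16-base element in capitals, 5 flanking bases in lower case, and coordinates of the element on GRCm38:
Hist1h4d (chr13:23581950-23581965, plus strand): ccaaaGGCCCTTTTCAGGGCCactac
Hist1h4j (chr13:21735437-21735452, plus strand): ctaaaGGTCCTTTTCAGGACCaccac
Hist2h4 (chr3:96262939-96262954, minus strand): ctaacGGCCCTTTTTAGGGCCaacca
Hist1h1c (chr13:23739512-23739527, plus strand): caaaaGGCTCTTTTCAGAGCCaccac
Hist1h3b (chr13:23752820-23752835, plus strand): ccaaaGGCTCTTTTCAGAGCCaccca
Hist1h2bk (chr13:22036300-22036315, plus strand): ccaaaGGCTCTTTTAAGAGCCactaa
Hist2h2ac (chr3:96220418-96220433, minus strand): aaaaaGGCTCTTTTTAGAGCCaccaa

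The form in Hist1h1c and Hist1h3b, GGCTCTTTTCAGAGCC, was the most frequent and occurred in 24 genes. The form in Hist1h4d, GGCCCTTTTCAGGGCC, occurred in 7 genes, that in Hist1h2bk in 6, those in Hist1h4j and Hist2h4 in 2 each, and that in Hist2h2ac in 1. By family the element was found in 4 of 6 H1, 11 of 18 H2A, 8 of 16 H2B, 8 of 12 H3 and 11 of 13 H4 genes. Of the 23 genes without it, 13 have gene models of 420 nt or less, so that the annotation may stop before the 3′ end. 17 genes have over 300 nt of annotated transcript past the stem-loop, Hist1h4d and Hist1h1c among them, and 11 genes with a stem-loop also have AATAAA, the polyadenylation signal, in the last 40 nt of a transcript.

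Promoters are shown because the genes moved together. RefSeq promoter sequences (GRCm38.p6, 250 bases before to 50 after the start) were found by older symbol for 59 of the 65 genes; those not matched were Hist1h2ap, Hist1h3f, Hist1h2bc, Hist1h3a, Hist2h2be and Hist2h4. For 1 gene each of the H4, H1, H2B and H3 families, the 150 bases before the RefSeq start are given 5′ to 3′ with the CCAAT box, the TATA box (letters TATAAA) and the octamer (letters ATTTGCAT), on either strand, in capitals:
Hist1h4d (chr13:23581418-23581567, plus strand): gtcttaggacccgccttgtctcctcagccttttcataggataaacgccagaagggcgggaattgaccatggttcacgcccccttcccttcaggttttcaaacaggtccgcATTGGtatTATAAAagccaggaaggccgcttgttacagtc
Hist1h1b (chr13:21780626-21780775, minus strand): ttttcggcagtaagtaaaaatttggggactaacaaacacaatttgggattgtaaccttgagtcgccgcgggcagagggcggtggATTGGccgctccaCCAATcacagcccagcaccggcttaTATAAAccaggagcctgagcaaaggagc
Hist1h2bk (chr13:22035671-22035820, plus strand): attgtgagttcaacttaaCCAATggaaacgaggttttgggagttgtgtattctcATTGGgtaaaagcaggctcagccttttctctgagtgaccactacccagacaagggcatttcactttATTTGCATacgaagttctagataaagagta
Hist1h3b (chr13:23752195-23752344, plus strand): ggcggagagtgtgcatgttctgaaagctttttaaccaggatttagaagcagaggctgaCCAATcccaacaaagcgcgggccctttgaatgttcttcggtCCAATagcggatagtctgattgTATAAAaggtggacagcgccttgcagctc

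All 6 H1, 17 H2A, 14 H2B and 10 H3 promoters held CCAAT, and 3 of 12 H4 promoters did, against 37.4% of 32544 RefSeq mouse promoters of the same length. TATAAA was present in 35 of the 59 (59.3%, against 13.6% of all promoters). The octamer ATTTGCAT, a site of the Oct transcription factors, was present in 7 of 17 H2A and 5 of 14 H2B promoters and in none of the 6 H1, 10 H3 and 12 H4 promoters, against 1.75% of all promoters. TTTCGCG, an E2F motif, had nearly the same distribution, with 8 of 17 H2A and 5 of 14 H2B promoters and no promoter of the other families, against 0.854% of all. TTTGAA, the core of the cell cycle homology region, was present in 26 of 59 (44.1%, against 17.8%) and TAAACA, a core forkhead motif, in 14 of 59 (23.7%, against 13.4%). Motifs were counted once per promoter on both strands and each on its own, overlaps included, and many H2A and H2B genes lie head to head, so that 1 stretch of DNA can be counted for a pair.

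Values are FPKM, fragment counts scaled to transcript length and to library size. The 14 libraries hold an estimated 2.74e+07 to 3.62e+07 fragments, and 11281 to 12046 genes reached 1 FPKM. The length used to scale each gene was estimated, from transcripts of 500 to 1500 nt, as the transcript length less 230 to 260 nt by library. Short histone models of 312 to 420 nt lie outside that range and would be divided by very small lengths. Levels of short and long models therefore cannot be compared. Reads that lie in shared sequence cannot be assigned to 1 gene by sequence alone. Values of such genes depend on how these reads were divided. In 15 genes over 80% of all 50-base words of the M21 models also occur in another gene (100% in Hist2h2aa2, 97.3% in Hist1h2bq). In 11 genes the share is under 10%, among them Hist1h1a, Hist1h1b, Hist2h2bb, Hist2h2be and Hist3h2ba with 0. The labels do not say whether poly(A) RNA was selected. Nor do they say whether replicates were grown separately, so p-values here cover only the variation among these libraries, part or all of which could be technical. Among the myoblast markers 5 of 6 averaged at least 1 FPKM and all 11 markers of differentiating muscle did, whereas epithelial, endothelial, adipocyte and germ cell markers summed to at most 0.54 FPKM in any library, with Epcam at 0. Of the 4 blood and macrophage markers 1, Cd68, averaged at least 1 FPKM and Adgre1 was at 0. Foxm1 was at 14.5, 14.7, 27.6 and 11.2 FPKM in activated shFoxM1, 37.1, 35.3 and 34.9 in activated shControl, 9.95, 6.61, 8.0 and 15.6 in quiescent shFoxM1 and 23.9, 12.8 and 10.0 in quiescent shControl libraries. Neither knockdown difference of Foxm1 passed (limma adjusted p = 0.624 in activated and 1 in quiescent cells).

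Of the 65 genes, 53 averaged at least 100 FPKM over the 14 libraries and 19 at least 1000 FPKM, and the median of the 65 in a single library lay between 159 and 1368 FPKM. The 10 highest by mean were Hist1h4d (3747 FPKM), Hist1h4c (3457), Hist1h4n (3325), Hist1h4h (2326), Hist1h4f (1868), Hist1h4k (1669), Hist1h2ap (1602), Hist1h4b (1595), Hist2h2aa1 (1573) and Hist1h2bg (1468). The first of them have M21 models of different lengths, 1138 nt for Hist1h4d, 820 nt for Hist1h4c and 430 nt for Hist1h4n. The order may thus in part follow the length used. Only 44 of the 65 genes, without Hist1h4d and Hist1h4c, have the same identifier version in M21 as in the deposited values. The models behind the FPKM may therefore differ from those of M21. Summed over the 65 genes, the level was 78854, 76017, 54044 and 58577 FPKM in activated shFoxM1, 108259, 100577 and 71355 in activated shControl, 27604, 26214, 13046 and 45512 in quiescent shFoxM1 and 27221, 19967 and 28240 in quiescent shControl libraries. Every activated library lay above every quiescent one, and quiescent shFoxM1 held both the lowest and the highest quiescent sum.

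**Figure D1:**
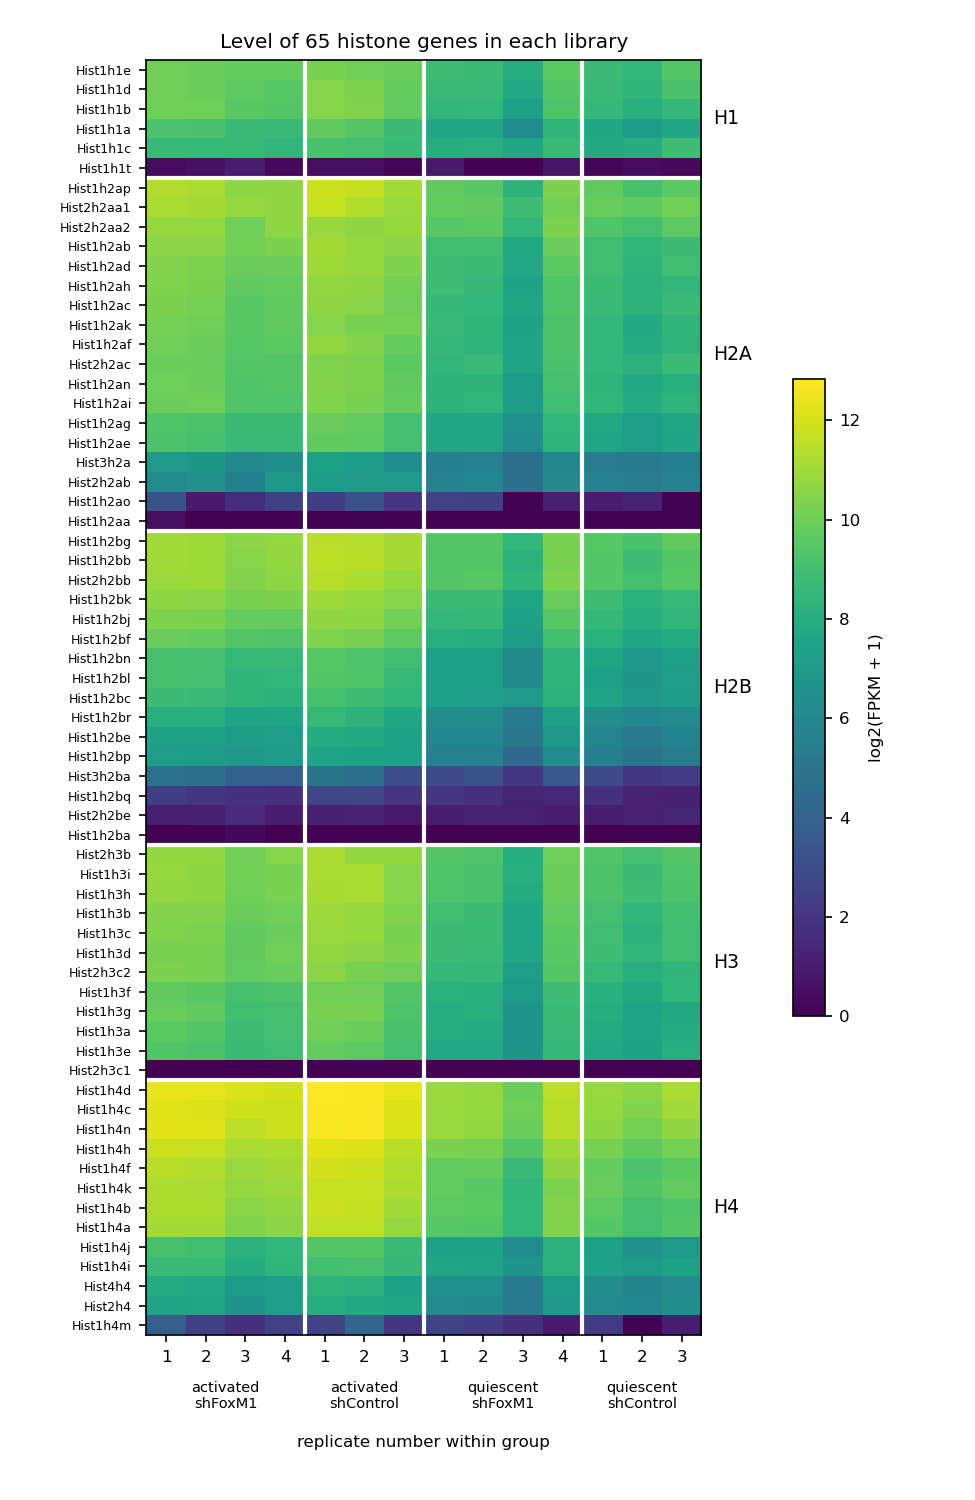
Level of the 65 histone genes as log2(FPKM + 1), with 1 row per gene (by family, then by mean level) and 1 column per library, in the order activated shFoxM1, activated shControl, quiescent shFoxM1 and quiescent shControl. Columns change as a whole: quiescent shFoxM1 replicate 3 is the lowest of its group for 59 of 61 tested genes and replicate 4 the highest for 57, while the dark rows (Hist2h3c1, Hist1h2ba, Hist1h2aa, Hist1h1t) stay at or near 0.

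The libraries of a group were ordered alike across genes. Activated shControl replicate 3 was the lowest of its group for 59 of the 61 genes tested, quiescent shControl replicate 2 for 57 and quiescent shFoxM1 replicate 3 for 59, and quiescent shFoxM1 replicate 4 was the highest of its group for 57. The genes therefore do not vary independently, and many genes called in 1 comparison rest on the same few libraries. Quiescent shFoxM1 replicates 3 and 4 also had the highest and lowest share of mitochondrial transcripts in protein-coding FPKM, 16.6% and 5.51%; the part of this in the histone values was not tested.

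The shares of the families in summed FPKM stayed within narrow limits from library to library. Levels of short and long models cannot be compared, so these shares compare libraries and not the families with each other. H4 genes made up 37.9 to 41.4% of the summed histone level of a library, H2A genes 22.5 to 24.0%, H3 genes 15.05 to 17.4%, H2B genes 13.6 to 16.3% and H1 genes 4.92 to 8.04%. The H1 share was 5.19 to 6.07% in activated shFoxM1, 4.92 to 5.11% in activated shControl, 6.08 to 6.92% in quiescent shFoxM1 and 6.03 to 8.04% in quiescent shControl libraries, so that for each hairpin every activated library lay below every quiescent one.

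**Figure D2:**
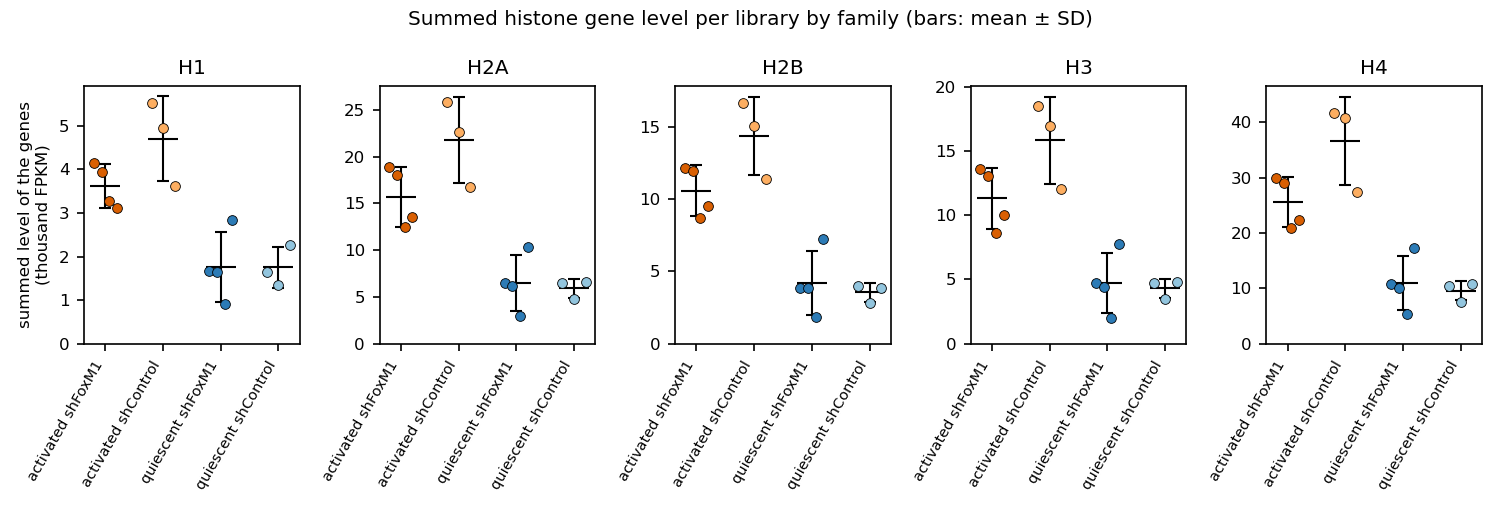
Summed FPKM (axis in units of 1000 FPKM) of the genes of each histone family in each library; points are libraries and bars are the mean ± SD of 4 activated shFoxM1, 3 activated shControl, 4 quiescent shFoxM1 and 3 quiescent shControl libraries, left to right. In each family the activated libraries lie above the quiescent ones of the same hairpin, and the 2 activated groups overlap.

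On activation of shControl cells, histone genes of all 5 families rose. Summed H4 transcripts averaged 36671 ± 7968 FPKM in activated and 9582 ± 1754 FPKM in quiescent shControl cells (SD, n = 3 each), a ratio of 3.83, and the ratio was 4.06 for H2B, 3.67 for H2A, 3.66 for H3 and 2.69 for H1. 61 of the 65 genes reached 1 FPKM in at least 3 libraries and were tested, and limma with Benjamini-Hochberg adjustment over 12432 genes called 59 of them higher and 0 lower, against 11.7% of all genes tested called higher and 16.5% called lower. The median log2 change of log2(FPKM + 1) was 1.89 for the 61 genes and -0.11 for all genes tested. In 58 of the 61, all 3 activated libraries lay above all 3 quiescent ones, which 17.5% of all genes tested did; Hist1h1c, Hist1h4m and Hist2h2be overlapped.

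Hist1h4d, the H4 gene with the highest level, was at 7336, 7012 and 5252 FPKM in activated shControl libraries, against 1933, 1587 and 2350.1 FPKM in quiescent ones (log2 change 1.74 ± 0.31 SE, adjusted p = 0.0014). Hist1h4j, an H4 gene of lower level, had the highest log2 change, with 707, 703 and 423 FPKM in activated and 157, 89.9 and 123 FPKM in quiescent libraries (2.30 ± 0.39, adjusted p = 0.00119). Hist1h2bk, an H2B gene, was at 2049, 1779 and 1475 FPKM in activated and 461, 290 and 392 FPKM in quiescent libraries (2.22 ± 0.39, adjusted p = 0.00143). In all 3 genes every activated library lay above every quiescent one. The next highest were Hist1h4f at 2.19, Hist1h2bf at 2.18, Hist1h2bj at 2.16 and Hist1h3g, an H3 gene, at 2.13. Of the other genes among the 10 with the highest level, Hist1h4b stood at 2.13, Hist1h2ap at 2.04, Hist1h4n at 2.02, Hist1h4h at 1.95, Hist1h4k at 1.90, Hist1h2bg at 1.89 and Hist1h4c at 1.80 (adjusted p of these 7 genes between 0.000868 and 0.00195).

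Genes of the Hist2 and Hist3 clusters and linker histone genes were among those called with the smallest changes. Hist2h2aa1, an H2A gene, was at 3328, 2612 and 1913 FPKM in activated and 911, 810.1 and 1118 FPKM in quiescent shControl libraries (1.44 ± 0.29, adjusted p = 0.0027). Hist3h2a, the H2A gene of the Hist3 cluster, had 158, 128 and 76.2 FPKM in activated and 42.3, 37.3 and 46.1 FPKM in quiescent libraries (1.45 ± 0.31), and Hist2h2ab had 135, 122 and 121 against 47.5, 40.4 and 50.9 FPKM (1.43 ± 0.33). Hist1h2bq changed by 1.06 ± 0.26 at a level of 1.20 to 5.62 FPKM in shControl libraries, and lost its call with libraries rescaled to equal sums (adjusted p = 0.0767). By cluster, the median log2 change was 1.98 over 49 Hist1 genes and 1.61 over 9 Hist2 genes.

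Linker histones bind between nucleosomes and compact chromatin, and the 5 somatic genes of the family spanned a wide range. Hist1h1a changed by 1.88 ± 0.39, Hist1h1b by 1.83 ± 0.37, Hist1h1d by 1.48 ± 0.33 and Hist1h1e by 1.20 ± 0.30 (adjusted p between 0.0027 and 0.0099). Hist1h1b was at 1454, 1335 and 862 FPKM in activated and 374, 265 and 372 FPKM in quiescent shControl libraries. Hist1h1c was at 572, 524 and 422 FPKM in activated and 231, 244 and 455 FPKM in quiescent libraries, so that quiescent replicate 3 lay above activated replicate 3. Its log2 change of 0.77 ± 0.26 passed narrowly (adjusted p = 0.0416) and did not pass in 16 of 32 alternatives, among them without activated shControl replicate 1 (0.123) or 2 (0.108), without quiescent shControl replicate 1 (0.148) or 2 (0.156), without any 1 of 5 shFoxM1 libraries (0.0504 to 0.0541), and with 3 of the 4 other scalings of the libraries (0.123 to 0.21). Hist1h1e lost its call without quiescent shControl replicate 2 (0.0551) and with quantile normalization (0.133).

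The rise was measured in genes with short and long M21 models and with little and much shared sequence. Classes follow the M21 models, which may differ from the models behind the FPKM. The median log2 change was 1.998 over 14 genes with models of 420 nt or less (14 called), 1.95 over 31 longer genes of up to 1000 nt (30 called) and 1.70 over 16 genes of over 1000 nt (15 called). It was 1.81 over the 9 tested genes with under 10% of shared 50-base words (8 called), 1.95 over 37 genes with 10 to 80% (37 called) and 1.87 over 15 genes with over 80% (14 called). Hist2h2bb, an H2B gene with no shared word, was at 2828, 2416 and 1857 FPKM in activated and 704, 534 and 730.3 FPKM in quiescent libraries (1.84 ± 0.35, adjusted p = 0.00194). By 3′ end, the median was 2.03 over 20 genes whose annotated transcript ends within 60 nt of the stem-loop, 1.75 over 16 genes with over 300 nt past it and 1.88 over 21 genes with no stem-loop found; these differences were not tested.

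In bulk RNA a smaller share of cells in S phase and less histone RNA per cell cannot be told apart. Genes of DNA synthesis moved in the same direction: the summed level of 26 S phase genes was 1289.9, 1444 and 1023 FPKM in activated and 634, 427 and 336 FPKM in quiescent shControl libraries, and 24 of the 26 passed as higher and 0 as lower. Markers of differentiating muscle went the other way, with a sum of 59.3 to 76.1 FPKM in activated and 288 to 1860 FPKM in quiescent shControl libraries, and 19.6 to 98.3 FPKM in activated and 98.1 to 953 FPKM in quiescent shFoxM1 libraries. Myoblast markers were also lower on average in activated cells. They summed to 101.9 to 205.7 FPKM in activated and 209.5 to 375.5 FPKM in quiescent shFoxM1 libraries. In shControl libraries the ranges overlapped, at 127.8 to 271.8 FPKM in activated and 240.7 to 387.9 FPKM in quiescent ones. The blood and macrophage list summed to 2.02 to 9.36 FPKM in activated shFoxM1, 4.32 to 13.9 in activated shControl, 1.66 to 3.78 in quiescent shFoxM1 and 1.44 to 2.05 in quiescent shControl libraries. Most of this sum was Cd68. Cd68, a lysosomal protein of macrophages, averaged 6.20 ± 3.08 FPKM in activated and 1.77 ± 0.88 FPKM in quiescent shFoxM1 cells (SD, n = 4 each). It averaged 9.66 ± 4.93 FPKM in activated and 1.38 ± 0.30 FPKM in quiescent shControl cells (SD, n = 3 each). The part of these lists in the histone result was not tested.

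**Figure D3:**
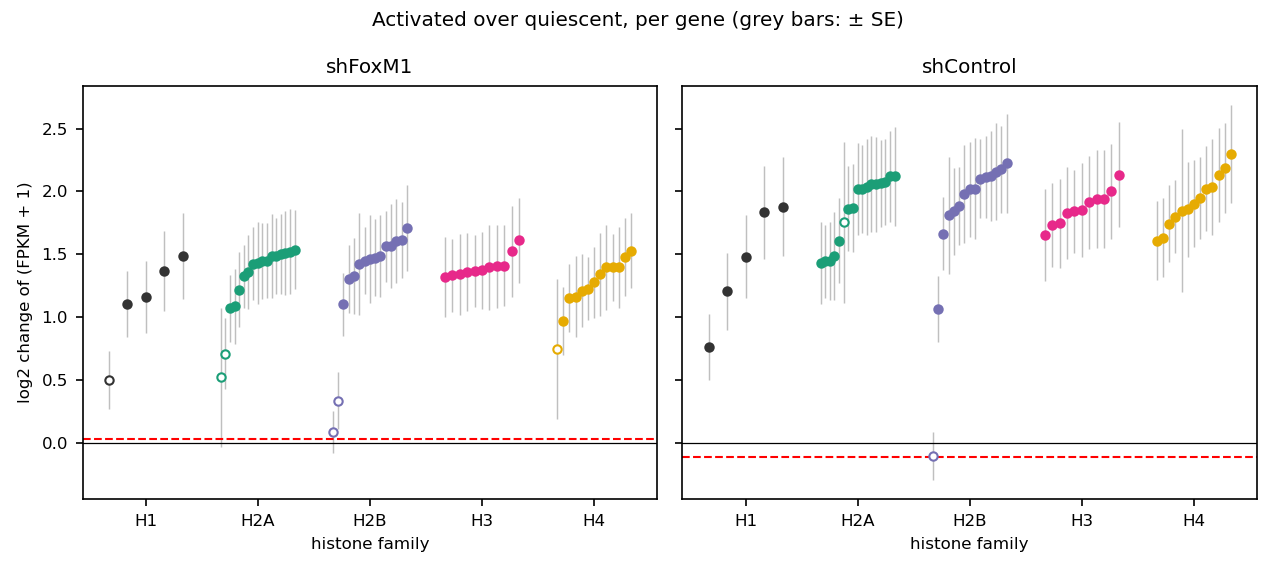
Log2 change of (FPKM + 1) on activation for each tested histone gene, by family, in shFoxM1 cells (left) and shControl cells (right); filled points passed at an adjusted p below 0.05, open points did not, grey bars are ± SE and the dashed line is the median of all genes tested. Filled points lie between 0.97 and 1.71 on the left and between 0.77 and 2.30 on the right, and Hist2h2be is open near 0 in both.

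In shFoxM1 cells the same families rose on activation. Summed H4 transcripts averaged 25592 ± 4589 FPKM in activated and 10941 ± 4925 FPKM in quiescent shFoxM1 cells (SD, n = 4 each), a ratio of 2.34, beside 2.53 for H2B, 2.43 for H2A, 2.40 for H3 and 2.05 for H1. 55 of 61 genes passed as higher and 0 as lower, against 18.3% of all genes tested called higher and 12.3% called lower, and the median log2 change was 1.40 beside 0.03 over all genes tested. In 50 of the 61 all 4 activated libraries lay above all 4 quiescent ones, against 17.3% of all genes tested. The 6 genes that did not pass were Hist1h1c, Hist2h2ab, Hist1h2bq, Hist1h4m, Hist1h2ao and Hist2h2be.

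Hist1h2bk had the highest log2 change, with 1599, 1574, 1162 and 1268 FPKM in activated shFoxM1 libraries, against 437, 432, 184 and 920.0 FPKM in quiescent ones (1.71 ± 0.34, adjusted p = 0.00222). Quiescent replicate 4 lay nearest to the activated libraries, without overlap. Hist1h2bf followed at 1.62 ± 0.30, Hist2h3c2, an H3 gene, at 1.61 ± 0.34, and the H2B genes Hist1h2bj, Hist1h2bn and Hist1h2bp at 1.61, 1.57 and 1.57. Hist1h4d was at 5329, 5217, 4456 and 4169 FPKM in activated and 1996, 1814, 983 and 3021 FPKM in quiescent libraries (1.40 ± 0.27, adjusted p = 0.00166). The other 9 genes of highest level changed by 1.21 (Hist1h4n) to 1.53 (Hist1h4k), with adjusted p between 0.00143 and 0.00659.

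The lowest called were Hist1h4i at 0.97 ± 0.27, Hist3h2a at 1.07 ± 0.27, Hist2h2aa2 at 1.09 ± 0.30, Hist1h2bc at 1.10 ± 0.25, Hist1h1e at 1.11 ± 0.26 and Hist2h4, the H4 gene of the Hist2 cluster, at 1.15 ± 0.27. Of the linker histone genes, Hist1h1a changed by 1.49 ± 0.34, Hist1h1b by 1.37 ± 0.32 and Hist1h1d by 1.16 ± 0.29 (adjusted p between 0.00495 and 0.00741). Hist1h1c was at 407.1, 389.6, 388.8 and 349.95 FPKM in activated and 256.6, 260.5, 196.95 and 408.2 FPKM in quiescent shFoxM1 libraries. Quiescent replicate 4 lay above every activated library there, and the change of 0.50 ± 0.23 did not pass (limma adjusted p = 0.111). The limma adjusted p was 0.0172 without quiescent replicate 4 and 0.0202 with shFoxM1 replicates 1 to 3 only. Quiescent shFoxM1 replicate 4 was the library that most reduced the change: without it the median log2 change of the histone genes was 1.66 and 57 of the 61 genes passed; without quiescent replicate 3 the median was 1.04 and 54 passed.

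Hist2h2be and Hist1h2ao passed in neither activation comparison. Hist2h2be, an H2B gene known in mouse for its expression in olfactory sensory neurons, was at 1.10, 1.17, 2.01 and 0.99 FPKM in activated shFoxM1, 1.18, 1.28 and 0.87 in activated shControl, 0.95, 1.44, 1.29 and 0.97 in quiescent shFoxM1 and 1.02, 1.26 and 1.55 in quiescent shControl libraries. All groups overlapped, and its log2 change on activation was 0.09 ± 0.16 in shFoxM1 (adjusted p = 0.725) and -0.11 ± 0.19 in shControl cells (0.694). No stem-loop was found in its transcript of 2620 nt. Hist1h2ao and Hist1h4m, which share 93.5% and 89.8% of their 50-base words with other genes, ranged from 0 to 8.01 FPKM and from 0 to 17.0 FPKM; on activation of shControl cells Hist1h4m passed (1.85 ± 0.65, adjusted p = 0.0453) and Hist1h2ao did not (1.76 ± 0.64, 0.0522).

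4 genes did not reach the level needed for a test. Hist1h1t, the linker histone gene of the testis, was at 0.07 to 1.03 FPKM over the 14 libraries, above 1 FPKM in activated shFoxM1 replicate 3 alone. Hist1h2aa and Hist1h2ba, which encode the testis forms of H2A and H2B, were each above 0 in 1 library, at 0.41 FPKM in activated shFoxM1 replicate 1 and 0.21 FPKM in activated shFoxM1 replicate 3. Hist2h3c1, an H3 gene, was listed at 0 in all 14 libraries, while Hist2h3c2 and Hist2h3b, which share 63.5% and 79.7% of their 50-base words with it, averaged 769 and 1159 FPKM.

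In activated cells, histone genes were lower in shFoxM1 than in shControl libraries on average, but no gene passed. Summed histone transcripts averaged 66873 ± 12390.3 FPKM in activated shFoxM1 (n = 4) and 93397 ± 19471 FPKM in activated shControl cells (SD, n = 3), a ratio of 0.716. The ratio was 0.769 for H1, 0.722 for H2A, 0.736 for H2B, 0.715 for H3 and 0.698 for H4. 59 of the 61 tested genes had a negative log2 difference, as had 3939 of all 12432 genes tested. The median was -0.47, beside 0.11 over all genes tested. The histone genes do not vary independently, so their signs are not separate results. limma called 0 of the 61, as 0 (0.0%) of all 12432 genes in either direction. An unadjusted limma p below 0.05 was reached by 1 of the 61 histone genes and by 978 of all 12432 genes.

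The spread within the control group was as wide as the difference. Activated shControl replicate 3, with a sum of 71355 FPKM, lay below shFoxM1 replicates 1 and 2 at 78854 and 76017. Hist1h4c, for example, was at 4800, 4666, 3811 and 3599.6 FPKM in activated shFoxM1 and 7028, 6932 and 4661 FPKM in activated shControl libraries (-0.54 ± 0.27, adjusted p = 0.633). Hist2h2ab had the smallest p, with 71.0, 89.4, 45.4 and 113 FPKM in shFoxM1 and 135, 122 and 121 FPKM in shControl libraries (-0.73 ± 0.31, unadjusted p = 0.0317, adjusted 0.629). Hist2h4 was at 178, 183, 104 and 148 FPKM in shFoxM1 and 258, 222 and 190.1 FPKM in shControl libraries, without overlap (-0.56 ± 0.29, adjusted p = 0.646). In 8 of the 61 genes (Hist1h1c, Hist1h2ak, Hist1h2bb, Hist1h2bg, Hist1h2bp, Hist1h3d, Hist2h2ab and Hist2h4) all 4 shFoxM1 libraries lay below all 3 shControl libraries, against 2.73% of all genes tested.

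The size of this difference depends on how libraries are scaled. With columns rescaled to equal sums, the median over the histone genes was -0.01 and that over all genes 0.50, and relative to all genes the histone genes stood at -0.51, against -0.58 on the deposited scale. Relative to all genes they stood at -0.60 when scaled by median of ratios, -0.26 after quantile normalization and -0.35 after removal of a trend on GC content and transcript length. Leaving out 1 library kept the median between -0.67 and -0.35 with 0 genes called. Weighting libraries by their agreement, an estimate that did not fully converge, gave 43 histone genes called lower (70.5% of the 61). Of all genes this fit called 8.37% lower and 31.0% higher, where the main fit called 0.

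In quiescent cells the hairpins did not separate the histone genes. Summed transcripts averaged 28094 ± 13337 FPKM in quiescent shFoxM1 (n = 4) and 25143 ± 4512 FPKM in quiescent shControl cells (SD, n = 3), a ratio of 1.12. The median log2 difference was 0.05 over the 61 genes, 40 being positive and 21 negative. It was -0.02 over all 12432 genes tested, 5328 being positive and 7101 negative. limma called 0 of the 61, as 0.0% of all genes tested. An unadjusted limma p below 0.05 was reached by 0 of the 61 histone genes and by 263 of all genes tested. Hist1h4m (0.85 ± 0.61), Hist1h2ao (0.79 ± 0.60) and Hist3h2ba (0.51 ± 0.44) had the smallest p and are among the genes of lowest level. The median was 0.41 without quiescent shFoxM1 replicate 3 and -0.22 without quiescent shFoxM1 replicate 4.

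**Figure D4:**
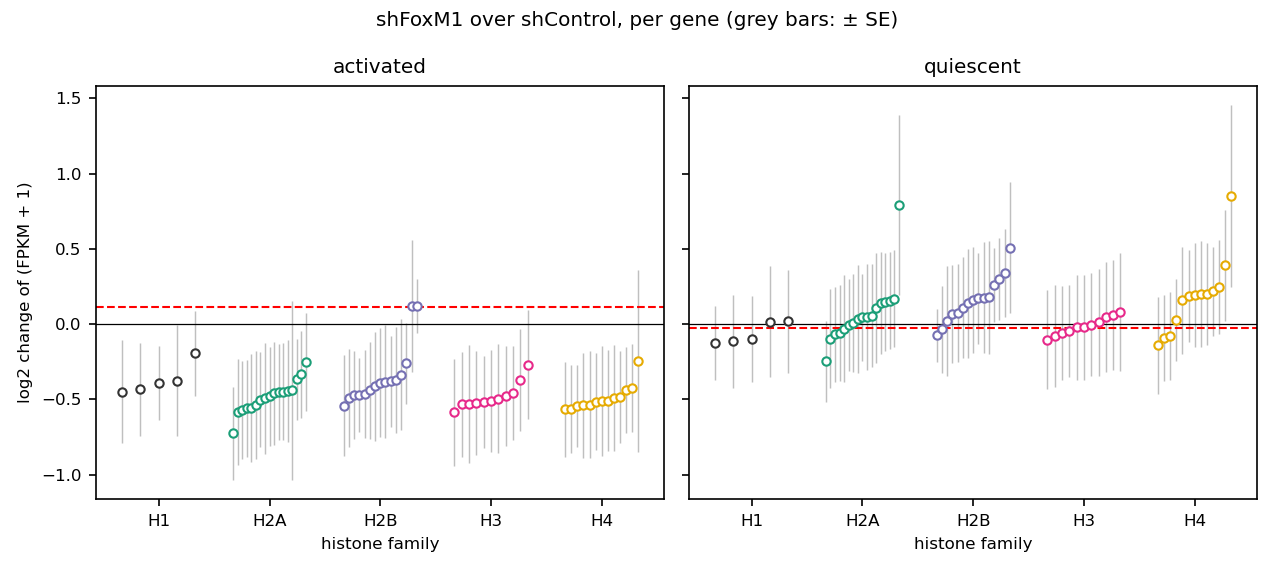
Log2 difference of (FPKM + 1) between shFoxM1 and shControl cells for each tested histone gene, by family, in activated (left) and quiescent cells (right); grey bars are ± SE, open points did not pass and the dashed line is the median of all genes tested. On the left 59 of 61 points lie below 0, with a median of -0.47; on the right they scatter around 0, with a median of 0.05.

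The activation response was smaller in shFoxM1 than in shControl cells for 60 of the 61 genes. The difference was negative for 3698 of all 12432 genes tested. Its median was -0.53 over the histone genes, beside 0.13 over all genes tested. No gene passed the limma test of this difference (0 of 61, 0.0% of all genes tested). An unadjusted limma p below 0.05 was reached by 0 of the 61 histone genes and by 433 of all genes tested. Hist1h2bq, Hist1h2be and Hist1h4n had the smallest p (-0.73, -0.80 and -0.81; adjusted p = 0.993). The 2 activation comparisons and the difference rest on the same libraries, and the median difference was -0.88 without quiescent shFoxM1 replicate 3 and -0.24 without quiescent shFoxM1 replicate 4. It was -0.11 with libraries rescaled to equal sums, -0.34 after quantile normalization and -0.30 after removal of the GC and length trend, where all genes stood at 0.49, 0.01 and 0.13. With median-of-ratios scaling it was -0.71 and with equal sums over protein-coding genes -0.48, where all genes stood at -0.01 and 0.17. Relative to all genes, the histone genes stood at -0.66 on the deposited scale and -0.60 with equal sums. They stood at -0.69 with median of ratios, -0.65 with equal protein-coding sums, -0.35 after quantile normalization and -0.43 after removal of the trend.

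Genes that act on histone mRNA were measured as a list of 27, of which 24 were tested. Slbp, which binds the stem-loop, was at 40.6, 43.1, 28.7 and 22.2 FPKM in activated shFoxM1, 29.0, 39.3 and 24.1 in activated shControl, 22.3, 19.0, 14.9 and 17.2 in quiescent shFoxM1 and 22.4, 16.7 and 13.3 in quiescent shControl libraries. It rose on activation by 0.81 ± 0.22 in shFoxM1 (adjusted p = 0.0143) and by 0.79 ± 0.26 in shControl cells (0.0347), below the histone medians of 1.40 and 1.89. The shControl call was lost without activated replicate 1 (0.0673) or 2 (0.145) or quiescent replicate 2 (0.0956) or 3 (0.126), and the shFoxM1 call without activated replicate 2 (0.0523). Npat, the coactivator of histone gene transcription, was at 3.52 to 6.97 FPKM in activated shFoxM1, 3.35 to 6.52 in activated shControl, 2.39 to 7.18 in quiescent shFoxM1 and 4.24 to 7.22 in quiescent shControl libraries, and in shControl cells its change of -0.25 ± 0.32 did not pass.

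Of this list 7 of 24 passed as higher and 0 as lower in shFoxM1 cells, with a median log2 change of 0.30, against 18.3% of all genes tested called higher. In shControl cells 3 of 24 passed as higher and 2 as lower, with a median of 0.19, against 11.7% of all genes called higher and 16.5% called lower. The share called higher was thus near that of all genes in shControl cells and above it in shFoxM1 cells. The share called lower was below that of all genes in both. The shControl calls of this list numbered 0 without activated shControl replicate 2 or quiescent shControl replicate 2 and 1 without quiescent shControl replicate 3. The shFoxM1 calls numbered 3 without activated shFoxM1 replicate 2 and 4 without activated or quiescent shFoxM1 replicate 3. Besides Slbp, the genes with the smallest p in shFoxM1 cells were Lsm11 (0.84 ± 0.18), a protein of the U7 particle that cleaves histone pre-mRNA, Ncbp1 (0.49), a cap-binding subunit, Cstf2 (0.59), a cleavage stimulation factor, and Nfyc (0.37), a subunit of the factor that binds CCAAT. In shControl cells they were Nfyc (0.41), Ncbp1 (0.47), Pou2f1 (-0.67), the octamer-binding protein Oct-1, and Ctif (-0.55), a factor of cap-dependent translation, with adjusted p between 0.0297 and 0.0394. No gene of the list passed in a knockdown comparison.

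Genes of variant and replication-independent histones were taken as 1 list and behaved unevenly. Many of their products are placed on chromatin outside S phase or at particular sites. Of 14 genes, 10 were tested; 5 passed as higher and 1 as lower in shFoxM1 cells, and 4 as higher and 0 as lower in shControl cells. Of all genes tested 18.3% were higher and 12.3% lower in shFoxM1 cells, and 11.7% were higher and 16.5% lower in shControl cells. H2afx, the variant phosphorylated at DNA breaks and the only one of the 14 in which the stem-loop search found a match, was at 346, 318, 242 and 237 FPKM in activated and 105, 103, 42.0 and 148 FPKM in quiescent shFoxM1 libraries (1.62 ± 0.30, adjusted p = 0.0015). In shControl cells it was at 413, 324 and 216 FPKM in activated and 97.1, 74.5 and 83.7 FPKM in quiescent libraries (1.85 ± 0.35, 0.00206). H2afz, which marks promoters, rose by 1.32 ± 0.20 in shFoxM1 and 1.45 ± 0.23 in shControl cells, and Cenpa, the H3 variant of centromeres, by 1.27 ± 0.23 and 1.50 ± 0.27.

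H3f3a and H3f3b, which encode the replacement histone H3.3, did not share this rise. H3f3a was at 254, 249.1, 241 and 181 FPKM in activated and 318, 268, 317 and 323 FPKM in quiescent shFoxM1 libraries and passed narrowly as lower (-0.41 ± 0.15, adjusted p = 0.0496). This was the 1 lower call of the list. The list had no lower call in 22 of 32 alternatives, among them 11 of the 14 that left out 1 library (each but activated shControl replicates 2 and 3 and quiescent shFoxM1 replicate 2). In shControl cells its change of -0.23 ± 0.17 did not pass. H3f3b changed by 0.38 ± 0.19 in shFoxM1 and -0.11 ± 0.22 in shControl cells, and H1f0, a linker histone of resting and differentiated cells, by 0.07 ± 0.19 and -0.31 ± 0.22; none of these passed. H2afy, the macroH2A gene, rose by 0.82 ± 0.14 in shFoxM1 and 0.48 ± 0.16 in shControl cells, and H1fx by 0.93 ± 0.31 in shFoxM1 cells.

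**Figure D5:**
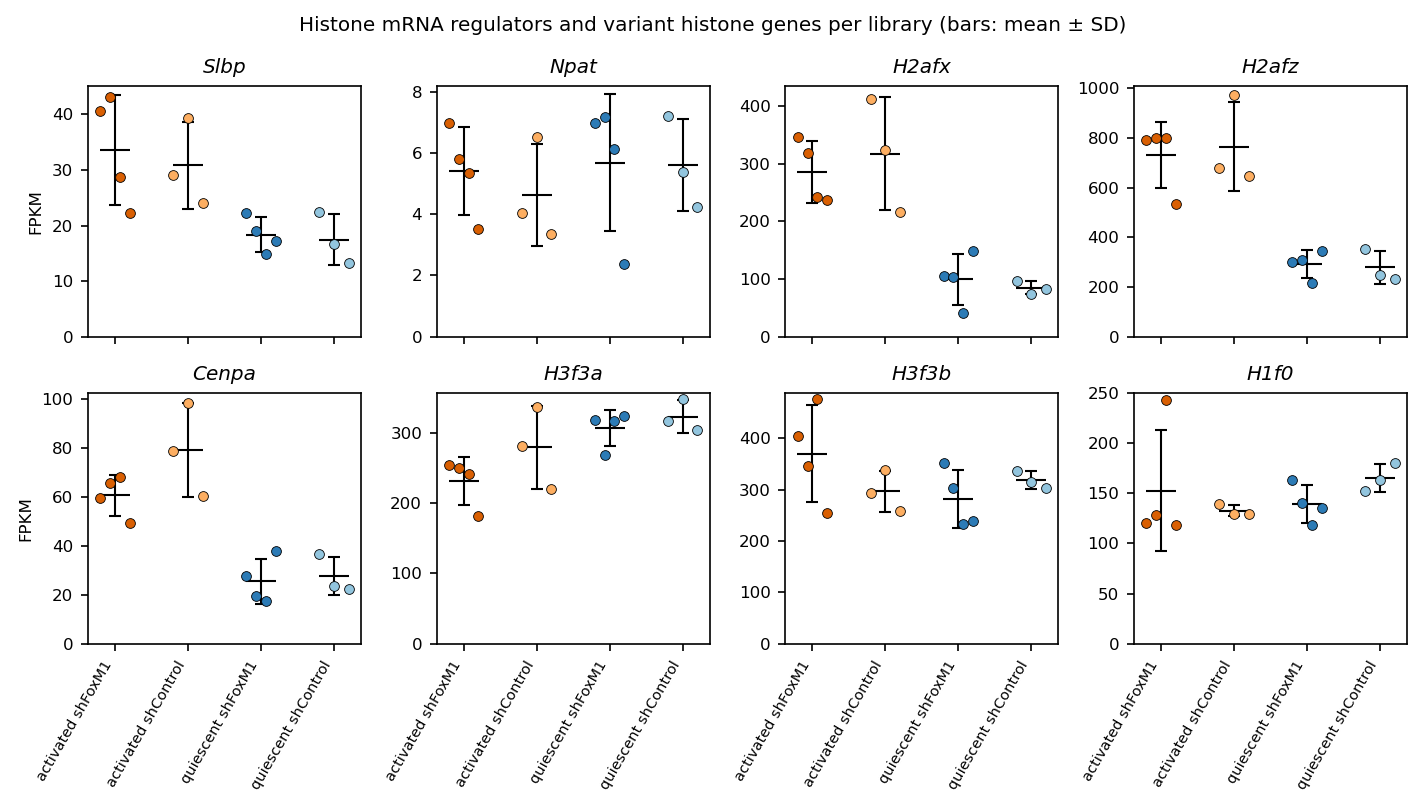
FPKM of Slbp, Npat and 6 variant or replication-independent histone genes in each library. Points are libraries and bars are the mean ± SD. Groups are, left to right, 4 activated shFoxM1, 3 activated shControl, 4 quiescent shFoxM1 and 3 quiescent shControl libraries. H2afx, H2afz and Cenpa separate activated from quiescent libraries, whereas Npat, H3f3b and H1f0 overlap.

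Histone chaperones, which carry new histones to the replication fork and onto DNA, were tested as a list of 24. 15 passed as higher and 0 as lower in shFoxM1 cells and 10 as higher and 0 as lower in shControl cells, with median log2 changes of 0.65 and 0.59, against 18.3% and 11.7% of all genes called higher. With libraries rescaled to equal sums 3 were higher and 1 lower in shControl cells. Asf1b, a chaperone of H3 and H4, rose by 1.91 ± 0.32 in shFoxM1 and 2.17 ± 0.37 in shControl cells, and the subunits of chromatin assembly factor 1 rose by 1.53 and 1.57 (Chaf1b) and by 1.46 and 1.49 (Chaf1a). Ssrp1, a subunit of FACT, rose by 0.94 and 0.81, and Anp32b by 1.19 and 1.07. Of the 26 S phase genes, 26 passed as higher in shFoxM1 and 24 in shControl cells, against 18.3% and 11.7% of all genes, with medians of 1.31 and 1.40 (14 in shControl cells with libraries rescaled to equal sums), with the smallest p in both for Dut (1.33 and 1.39), the enzyme that keeps uracil out of DNA. The ratio of summed histone to summed S phase transcripts was 51.2, 49.4, 42.8 and 60.5 in activated shFoxM1 and 83.9, 69.6 and 69.8 in activated shControl libraries, with no overlap. It was 39.8 to 69.0 in quiescent shFoxM1 and 43.0 to 84.0 in quiescent shControl libraries. The ratio was not tested and was not computed after quantile normalization or removal of the GC and length trend.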

How the data were processed

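14 RNA-seq libraries of C2C12 cells were grouped by the submitters' labels. The deposited table gives FPKM values per Ensembl gene that the authors made with RSEM and GENCODE gene models, per the name of the table; neither label nor header names the GENCODE release, filters or strand setting. Bowtie 0.12.9 and Cufflinks 2.1.1 are listed in the submitters' processing notes, as are HTSeq, with no version, and mm10. Depth was estimated from the steps between low FPKM values, of which 94.1 to 96.4% lay within 0.25 of a step; column sums were not used as depth, since 4 short RNAs held 71.5 to 80.5% of them.

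The 12432 genes that reached 1 FPKM in 3 or more libraries were fitted as log2(FPKM + 1) with limma 3.58.1 in R 4.3.3, with 1 mean per group over the 14 libraries, a mean-variance trend and Benjamini-Hochberg adjustment over all genes tested; a change was called at an adjusted p below 0.05, and fold changes on this scale understate those of low genes. Named genes were the 10 histone genes of highest mean, the up to 6 highest and 6 lowest changes called in a comparison, the 3 of smallest p where fewer than 4 passed, all linker histone genes, up to 5 genes of smallest p from each other list, and Slbp, Npat and Foxm1; other genes, chosen after their values were seen, serve as examples. The histone genes and all lists were chosen with earlier results of these data known. Fits were tested on simulated data. Alternatives were other pseudocounts, filters, scalings, thresholds and library weights, a replicate block, and each library left out. A further alternative kept only shFoxM1 replicates 1 to 3. Removal of a trend on GC content and length and joint omission of quiescent shFoxM1 replicates 3 and 4 were added after seeing the data. Same-numbered libraries did not deviate together in all pairs (correlations from -0.229 to 0.381, 8 of 19 above 0.1). Pairs of differently numbered libraries from different groups ranged more widely, from -0.684 to 0.666. Between activated and quiescent libraries of the same number, correlations were 0.381, 0.0888, 0.251 and 0.234 for shFoxM1. For shControl they were -0.205, -0.0652 and 0.132.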

Additional observations from a re-analysis of the deposited data

Results flagged for a closer look

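Among 102 gene values tested in groups of 4 libraries, 3 had 1 library set apart from the others of its group by Dixon's criterion at its 95% critical value; chance flags about 1 in 20. H2afz was at 534.5 FPKM in activated shFoxM1 replicate 4, the lowest of its group, with a gap of 0.961 of the group's range. H3f3a was lowest in quiescent shFoxM1 replicate 2, at 268.1 FPKM (0.882). H1f0 was highest in activated shFoxM1 replicate 3, at 242.9 FPKM (0.920). None of the 3 is a gene of the Hist1 to Hist4 clusters.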

How the results depend on the processing

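The histone genes called on activation numbered 53 to 57 in shFoxM1 and 55 to 59 in shControl cells over the 14 fits that each left out 1 library, and 51 to 57 and 56 to 60 over 18 other settings. Both knockdown comparisons and the difference between activation responses had 0 called in each fit that left out 1 library and in 17 of the 18 other settings. Under array weights, whose estimate did not fully converge, they had 43 genes called lower in activated cells, 17 higher in quiescent cells and 53 lower for the difference, against 8.37% lower, 9.16% higher and 3.66% lower of all genes tested; the cause was not tested. With the replicate block, 56 genes were called on activation in shFoxM1 and 60 in shControl cells and 0 in the other comparisons, and after removal of a GC and length trend with the block 56, 57 and 0. The correlations of same-numbered libraries do not settle whether the replicate numbers pair the libraries. Npat changed by 0.0168 in shControl cells after removal of the GC and length trend, with and without the block, and so turned direction without passing; the cause was not tested. Counts over all genes ranged from 1982 to 7273 in shFoxM1 (3814 as reported) and from 1590 to 9544 in shControl cells (3515) over the 18 other settings. Over these settings the mRNA processing list ranged from 1 to 12 called in shFoxM1 and from 0 to 17 in shControl cells (3 to 8 and 0 to 6 with 1 library left out), the chaperones in shControl cells from 4 to 19 and the S phase genes in shControl cells from 14 to 26. The upper ends came from array weights. Over the 17 settings without them, all genes ranged from 1982 to 4991 in shFoxM1 and from 1590 to 4583 in shControl cells. The mRNA processing list then ranged from 1 to 9 in shFoxM1 and 0 to 8 in shControl cells. In shControl cells the chaperones ranged from 4 to 13 and the S phase genes from 14 to 25. Depth was not a limit for most histone genes, but Hist1h2ao, Hist1h4m, Hist1h2bq and Hist2h2be, at a few FPKM, rest on few fragments.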
